A study of Caenorhabditis elegans with 16 samples.

Results

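Occupancy by the RNA polymerase subunit RPB-6 was examined at 5 miRNA genes of C. elegans, the let-7 family members let-7, mir-48, mir-84 and mir-241, and lin-4. They were chosen by name out of 261 annotated miRNA genes that have at least 1 GATC fragment in their window. Each gene was extended by 500 bp on both sides, and its occupancy was the mean score of the GATC fragments in that window, weighted by the overlapped length. A window held between 2 and 9 fragments in these genes, against a median of 4 over all 261.

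miRNAs are short RNAs that are cut from longer RNA polymerase II transcripts and repress mRNAs that carry a match to their seed, bases 2 to 8 of the mature miRNA. lin-4 and let-7 were found through heterochronic mutants, in which C. elegans cells repeat or skip the division patterns of a larval stage, and the epidermal seam cells are the cells in which these defects are best known. lin-4 acts early and represses lin-14 and lin-28, mir-48, mir-84 and mir-241 act together at the transition from L2 to L3, largely through hbl-1, and let-7 acts at the transition from larva to adult, largely through lin-41.

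The mature sequences are shown because they define the families. They were read from the RefSeq annotation of WBcel235, 5′ to 3′, and the capitals mark the seed. let-7 and the 3 genes below it share 1 seed.
let-7: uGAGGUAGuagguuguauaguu
mir-48: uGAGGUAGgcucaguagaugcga
mir-84: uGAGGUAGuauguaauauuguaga
mir-241: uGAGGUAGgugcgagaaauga
lin-4 carries another seed, which it shares with mir-237.
lin-4: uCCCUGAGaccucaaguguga
mir-237: uCCCUGAGaauucucgaacagcu
Counted from the 5′ end without gaps, mir-84 has the same base as let-7 at 17 of the 22 positions of let-7, mir-241 at 12 and mir-48 at 9. mir-795 is a further annotated gene with the let-7 seed.

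The data come from targeted DamID (TaDa), in which the bacterial methyltransferase Dam is fused to a protein and marks the adenine of GATC sites that the protein comes close to. dam:rpb-6, a fusion to a subunit that all nuclear RNA polymerases share, so that the score is not particular to RNA polymerase II, was expressed from a single-copy transgene under srf-3i1, a seam cell enhancer from an intron of srf-3 on a minimal pes-10 promoter (strain MBA698), or under dpy-7syn1, an altered dpy-7 promoter active in the hypodermis (strain MBA688). dam:NLS-GFP under the same promoters was the control for accessible chromatin (strains MBA692 and MBA693). All 4 strains carried unc-119(ed3) with a C. briggsae unc-119 rescue and a mCherry reading frame and unc-54 3′UTR in the transgene, and each strain is 1 inserted line. L2 larvae were taken after 24 h of growth and L4 larvae after 48 h, in 2 biological replicates per strain and stage, or 16 samples. Each score is log2(dam:rpb-6/dam:NLS-GFP), so a score of 0 means that polymerase fusion and control marked the fragment alike. DNA came from whole animals, so more cells with polymerase on a gene and more polymerase per cell cannot be told apart. The score measures marks left by polymerase on the primary transcript's DNA and not the mature miRNA. The authors state that carry-over of methylation is difficult to exclude and limits what DamID shows of changes over time. An L4 score may therefore include marks made before L4.

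Every replicate was set against each of 2 controls, and the profile of replicate 1 against control 1 in L4 seam cells stood apart from the rest. It correlated at r = 0.996 over fragments with the log2 ratio of the 2 controls and at -0.35 with the same replicate against control 2. It was left out, and values with it are given where they differ. The values below therefore rest on 8 profiles, chosen so that no sample enters a group more than once, replicate 1 against control 1 and replicate 2 against control 2, and in L4 seam cells replicate 1 against control 2 and replicate 2 against control 1. The 2 replicates correlated over fragments at 0.24 in L2 seam cells, 0.53 in L4 seam cells and 0.66 in hypodermis of either stage. Of 9 seam cell markers, all had a mean score above 0 in both seam cell groups and 3 in each hypodermis group. At L4 they were between 0.43 and 3.51 higher in seam cells than in hypodermis. The largest of these differences was that of grd-3, a hedgehog-related gene. It had means of 2.59 and 3.50 in L2 and L4 seam cells and -0.0027 and -0.0040 in the hypodermis groups. All 4 hypodermis markers had means above 0 in every group, seam cells included. At L2 all 4 were lower in seam cells than in hypodermis, with differences from -1.295 to -0.602. At L4 only 2 of the 4 were lower in seam cells, osm-7 (-0.925) and wrt-8 (-1.005). The other 2 were higher in seam cells, dpy-7 by 1.897 and elt-3 by 0.405. As a set the hypodermis markers therefore did not separate the cell types at L4. The 3 body wall muscle markers summed to 1.69 and 5.97 in the 2 seam cell replicates at L2, to 0.17 and -1.40 at L4 and to below 0 in every hypodermis profile. Their part in the results below was not tested. Markers of body wall muscle, intestine (3) and neurons (3) were never called above control after adjustment. By the same rule 1 of the 9 seam cell markers was called in L2 seam cells and 6 in L4 seam cells. The neuron marker snb-1 had means of 0.98 and 1.56 in L2 and L4 seam cells and 1.84 and 1.34 in hypodermis. It was the only neuron marker with a mean above 0 in each group.

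mir-48 and mir-241 lie 1774 bp apart on the minus strand of chromosome V, mir-241 upstream, with no protein-coding gene between them. In the mir-48 gene window (chrV:14364412-14364509, WBGene00003039, outside every protein-coding gene) RPB-6 occupancy was several-fold above control at L4 in both cell types, whereas at L2 it was near control in seam cells and 1.61-fold over control in hypodermis. The seam cell scores were 0.47 and 0.01 at L2 and 4.32 and 3.31 at L4. The hypodermis scores were 0.45 and 0.93 at L2 and 2.77 and 1.74 at L4. In each cell type both L4 replicates lay above both L2 replicates, with no overlap. The order of the group means was seam cells at L4 (3.82 ± 0.71, SD, n = 2), hypodermis at L4 (2.25 ± 0.73), hypodermis at L2 (0.69 ± 0.34) and seam cells at L2 (0.24 ± 0.32), of which the 2 L2 groups overlapped each other.

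The L4 minus L2 difference of mir-48 was 3.58 in seam cells (SE 0.50, 95% confidence interval 2.32 to 4.83), an 11.9-fold higher ratio at L4, and the largest difference among the 261 miRNA windows. It had an unadjusted p of 0.000651 and an adjusted p of 0.319 (limma, Benjamini-Hochberg over 20244 miRNA windows and protein-coding genes). In hypodermis the difference was 1.57 (SE 0.50, interval 0.31 to 2.82, unadjusted p = 0.0234, adjusted p = 0.999) and ranked at place 3 of 261. No feature of either kind (0%) passed the adjusted threshold of 0.05 in either stage comparison. At an unadjusted p under 0.05, 8 miRNA windows (3.07%) were higher and 14 (5.36%) lower at L4 in seam cells, and 5 (1.92%) were higher and 8 (3.07%) lower in hypodermis. Against this background let-7 and mir-48 were 2 of the 8 higher in seam cells, and mir-48 was 1 of the 5 higher in hypodermis. With the profiles as deposited, including the one left out, the seam cell difference was 1.38 (adjusted p = 1), and mir-48 scored 0.07 in the profile added.

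Occupancy above control was tested for each group mean against 0 in the same limma fit. mir-48 in L4 seam cells (mean 3.82, 14.1-fold over control, adjusted p = 0.0184) was the only one of the 20 combinations of gene and group that passed, where 10 of 261 miRNA windows (3.83%) were called above control. It ranked second of the 261 windows in that group. Both stages of a replicate were taken from 1 population, so the replicate was also fitted as a block. In seam cells the 2 stages of a replicate had different controls in these profiles. With the replicate number as a block over both cell types, 4 miRNA windows were called in L4 seam cells. With a block within each cell type, all 10 miRNA calls were lost. The adjusted p of mir-48 was then 0.0727 and its call was lost. It was also lost without replicate 1 (3.31, adjusted p = 0.151) and without replicate 2 (4.32, adjusted p = 0.0714), where the remaining sample was taken to vary like the other groups. In hypodermis at L4 the mir-48 mean of 2.25 had an adjusted p of 0.0546, with 4 windows called (1.53%). No miRNA window was called above control in L2 seam cells (0%) and 13 in L2 hypodermis (4.98%), none of them 1 of the 5 genes. At an unadjusted p under 0.05, 37 windows (14.2%) were above control in L2 seam cells, 43 (16.5%) in L4 seam cells, 26 (9.96%) in L2 hypodermis and 27 (10.3%) in L4 hypodermis.

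**Figure D1:**
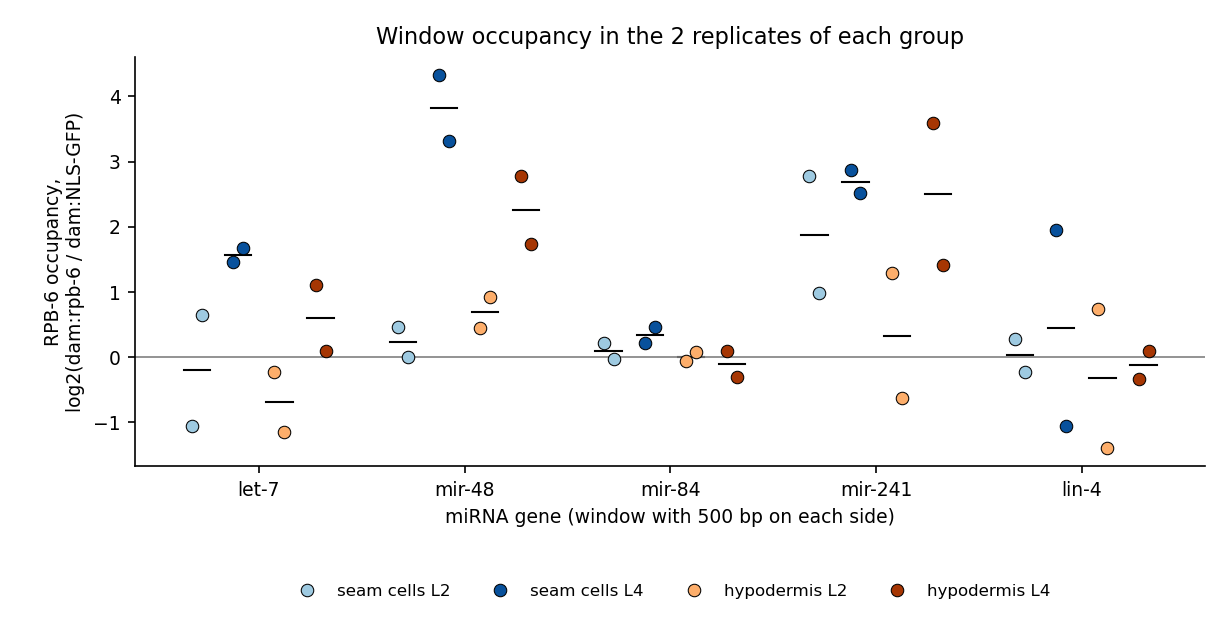
RPB-6 occupancy of each window as log2(dam:rpb-6/dam:NLS-GFP) on the y axis, by gene on the x axis. Points are the 2 replicates of each group and the black lines their means. For mir-48 and let-7 both L4 points lie above both L2 points in each cell type, whereas the points of lin-4 and mir-84 spread around 0 in most groups.

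Single fragments showed where at the mir-48 locus the L4 signal lay. The fragment from 494 to 750 bp downstream of the mature 5′ end scored 0.19 and 0.08 in L2 seam cells and 5.77 and 5.68 at L4. Of its 257 bp, only 89 bp are in the window, so it enters the window mean with a small weight. In hypodermis the same fragment scored -0.57 and 1.41 at L2 and 4.80 and 3.91 at L4. It had the highest L4 scores of all fragments in the 5 windows except the fragment that holds mir-241, in which 1 hypodermis replicate scored 5.92. The difference of this fragment was 5.59 in seam cells (SE 0.72, unadjusted p = 0.0008, adjusted p = 0.263 over 269057 fragments) and 3.93 in hypodermis (SE 0.72, unadjusted p = 0.00353, adjusted p = 0.539). Genome-wide 11 fragments (0.00409%) passed in seam cells and 2 (0.000743%) in hypodermis, none of them in the 5 windows, and 16449 (6.11%) and 11523 (4.28%) had an unadjusted p under 0.05.

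The fragment that holds the mir-48 hairpin (115 bp upstream to 493 bp downstream of the mature 5′ end) scored 0.76 and 0.00 in L2 seam cells against 3.96 and 3.12 at L4. In hypodermis it scored 0.07 and 0.31 against 2.85 and 1.73. The fragment just upstream, from 116 to 494 bp, separated the stages in seam cells but not in hypodermis, and the difference between the cell types was not tested for single fragments. It scored 0.00 and -0.02 at L2 and 4.65 and 3.14 at L4 in seam cells, and 1.29 and 1.86 at L2 and 2.18 and 1.25 at L4 in hypodermis. Both L4 replicates lay above both L2 replicates in 4 of the 4 fragments of the window in seam cells and in 3 of 4 in hypodermis, against 9.85% and 8.98% of all fragments. The unbroken run of such fragments around the mir-48 hairpin covered 5 fragments in seam cells, 2434 bp from 1581 bp upstream to 852 bp downstream of the mature 5′ end. In hypodermis it covered 7 fragments, 2464 bp from 115 bp upstream to 2348 bp downstream. Both runs were broken by fragments whose stages overlapped, and separated fragments followed beyond the break. From 495 to 1581 bp upstream hypodermis scored 0.55 and -0.13 at L2 and 2.49 and 1.35 at L4. From 2111 to 2348 bp downstream seam cells scored -1.61 and 0.01 at L2 and 1.26 and 2.49 at L4. The ends of the runs therefore do not show a difference in extent between the cell types. Adjoining fragments are not independent measurements.

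**Figure D2:**
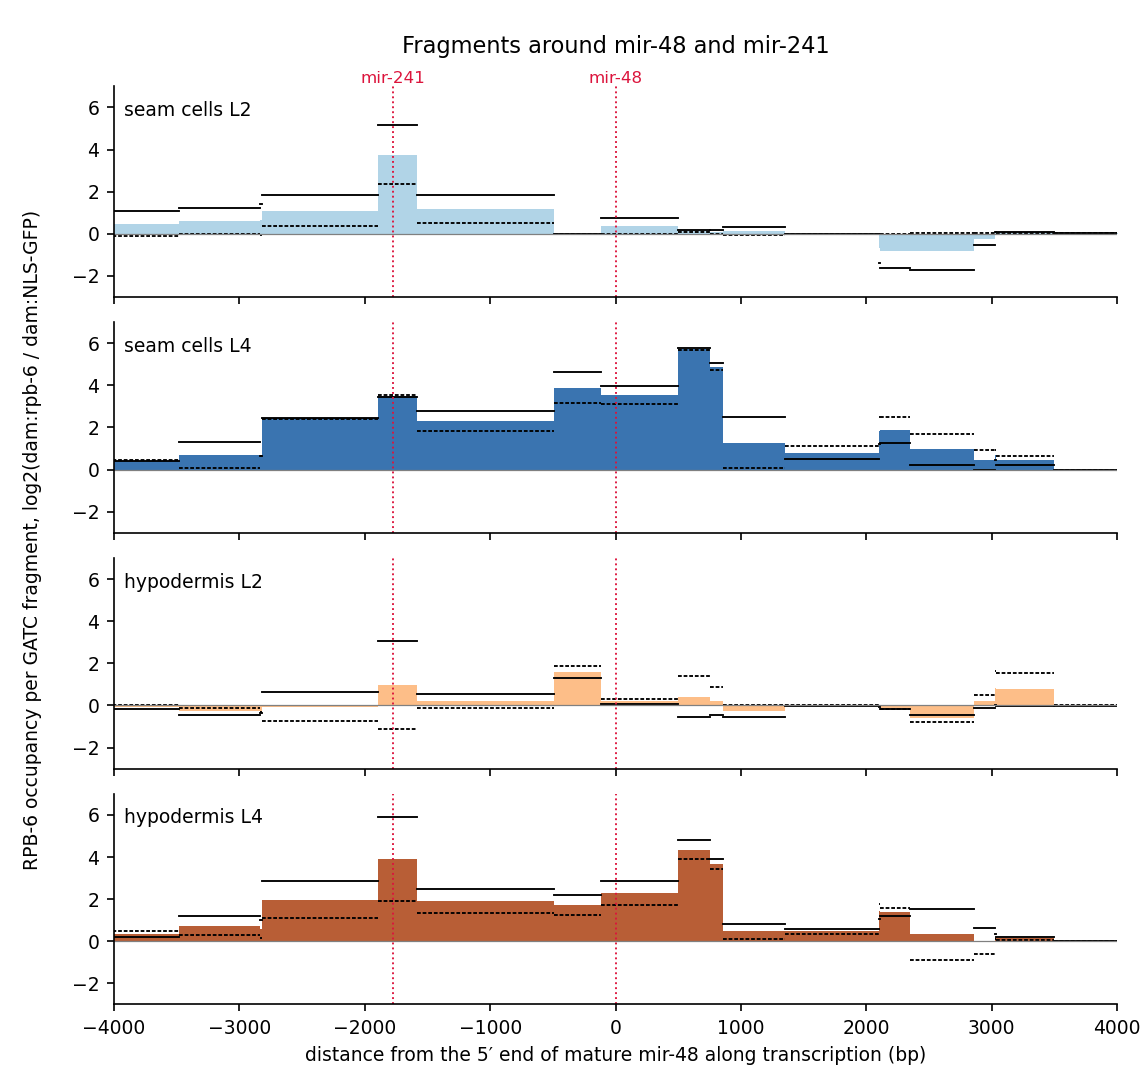
Score of each GATC fragment on the y axis, as log2(dam:rpb-6/dam:NLS-GFP), against the distance from the 5′ end of mature mir-48 along transcription on the x axis. Filled steps are the mean of 2 replicates, solid lines replicate 1 and dashed lines replicate 2, with red dotted lines at the mature 5′ ends of mir-48 and mir-241. At L4 signal extends from mir-241 past mir-48, whereas at L2 in seam cells the highest fragment is the one at mir-241.

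At mir-241 (chrV:14366188-14366283, WBGene00003335, outside every protein-coding gene) the replicates lay further apart than at mir-48. The seam cell scores were 2.78 and 0.98 at L2 and 2.86 and 2.52 at L4. The hypodermis scores were 1.29 and -0.62 at L2 and 3.59 and 1.42 at L4. The seam cell stages overlapped, while in hypodermis both L4 replicates were above both L2 replicates by a narrow gap. By group means the order was seam cells at L4 (2.69 ± 0.24), hypodermis at L4 (2.51 ± 1.54), seam cells at L2 (1.88 ± 1.27) and hypodermis at L2 (0.33 ± 1.35), and no neighbours in this order were separated beyond their replicates.

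The stage difference of mir-241 was 0.81 in seam cells (SE 1.06, interval -1.87 to 3.50, adjusted p = 0.834) and 2.17 in hypodermis (SE 1.06, interval -0.51 to 4.86, adjusted p = 1). The latter was second among the 261 miRNA windows in size, although it did not pass the test. In contrast to mir-48, which was near control in L2 seam cells, mir-241 ranked seventh of 261 in that group. Its hairpin fragment, 312 bp long, scored 5.16 and 2.34 in L2 seam cells and 3.47 and 3.52 at L4. In hypodermis this fragment scored 3.05 and -1.10 at L2 and 5.92 and 1.92 at L4.

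The control chosen moved mir-241 more than it moved mir-48. With the same replicates (both, but replicate 2 alone in L4 seam cells), the mir-241 score was higher against control 1 than against control 2 in all 4 groups, by 0.44 and 1.07 in L2 and L4 seam cells and by 1.26 and 1.44 in hypodermis. For mir-48 the same quantity was 0.07, 0.13, -0.26 and -0.03. Replicate 1 was paired with control 1 in 3 of the 4 groups, so the spread between replicates of mir-241 contains this difference. With replicates and controls crossed in every group, mir-241 passed the limma test above control at L4 in both cell types. The means were 2.69 in seam cells (adjusted p = 0.0245) and 2.66 in hypodermis (adjusted p = 0.0324). In L4 seam cells the crossed profiles were those already used, so the mean did not change. Against the same control, replicate 2 of mir-241 scored below replicate 1 in every group. In crossed profiles this difference and that of the control partly offset each other, which narrows the spread. The smaller p-values can come from this offset, so no conclusion is drawn from these passes. One fragment of 1087 bp between the genes is in both windows, so their values are not independent. Its seam cell scores were 1.83 and 0.51 at L2 and 2.78 and 1.85 at L4, and its hypodermis scores 0.55 and -0.13 at L2 and 2.49 and 1.35 at L4.

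The protein-coding genes on either side of this locus stayed near control. Y49A3A.4, 5522 bp from mir-48, scored between -0.13 and 0.29 in the 8 profiles. unc-39, a homeobox gene 6791 bp upstream of mir-241, scored between -0.27 and 0.02. The L4 minus L2 difference of Y49A3A.4 was 0.08 in seam cells and 0.14 in hypodermis, and that of unc-39 was 0.09 and -0.11.

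let-7 (chrX:14743590-14745321, minus strand, WBGene00002285) is annotated as a long primary transcript whose start lies 1066 bp upstream of the mature 5′ end, whereas the other 4 genes are annotated as hairpins. Its window had higher scores at L4 than at L2 in both cell types. The seam cell scores were -1.05 and 0.64 at L2 and 1.47 and 1.68 at L4. The hypodermis scores were -0.23 and -1.14 at L2 and 1.11 and 0.09 at L4. Both L4 replicates were above both L2 replicates in each cell type, although the L2 replicates of seam cells lay on opposite sides of 0. The group means were 1.57 ± 0.15 in L4 seam cells, 0.60 ± 0.72 in L4 hypodermis, -0.20 ± 1.20 in L2 seam cells and -0.69 ± 0.64 in L2 hypodermis, and in this order the first was separated from the next in every replicate and the others overlapped.

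The stage difference of let-7 was 1.78 in seam cells (SE 0.68, interval 0.06 to 3.49, unadjusted p = 0.0449, adjusted p = 0.557) and 1.29 in hypodermis (SE 0.68, interval -0.43 to 3.01, unadjusted p = 0.113, adjusted p = 1). Among the 261 windows these ranked at places 5 and 4. The seam cell difference was 0.93 without replicate 1 of L2 and 1.09 with the profiles as deposited. For the let-7 hairpin with 500 bp on each side, a window comparable to those of the other genes, the differences were 2.76 in seam cells (adjusted p = 0.621) and 2.36 in hypodermis (adjusted p = 1). Of all 261 miRNA windows, 5 (1.92%) had both L4 replicates above both L2 replicates in seam cells and in hypodermis, and let-7 and mir-48 were 2 of these 5. In seam cells alone 39 windows (14.9%) and in hypodermis alone 38 (14.6%) were separated in this direction. In seam cells this held for let-7, mir-48 and mir-84 and in hypodermis for let-7, mir-48 and mir-241.

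Along the let-7 locus the L4 signal was centred on and downstream of the hairpin. The fragment that holds mature let-7, from 5 bp upstream to 201 bp downstream of its 5′ end, scored -1.34 and 2.70 in L2 seam cells and 3.75 and 2.20 at L4, so the stages overlapped there. In hypodermis it scored 0.22 and -1.78 at L2 and 2.66 and 1.11 at L4, without overlap. The next fragment, from 202 to 518 bp downstream, was the highest of the window at L4. It scored -0.47 and 2.24 at L2 and 3.95 and 3.15 at L4 in seam cells, and 0.43 and -0.86 at L2 and 2.997 and 0.98 at L4 in hypodermis.

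Upstream of the hairpin, the fragment from 6 to 544 bp scored -2.93 and 0.28 in L2 seam cells and 1.62 and 1.86 at L4. In hypodermis it scored -0.97 and -2.77 at L2 and 1.52 and -0.35 at L4, so both L2 replicates were below control. The fragment furthest upstream, 3116 bp long and reaching to 3798 bp upstream, stayed between -0.07 and 0.10 in every profile and takes 884 bp of the window. L4 replicates were above L2 replicates in 7 of 9 fragments in seam cells and in 7 of 9 in hypodermis, against 9.85% and 8.98% of all fragments. These fragments adjoin each other and are not independent measurements. The lowest adjusted p of a fragment was 0.692 (limma). In hypodermis 6 adjoining fragments around the hairpin, 1503 bp from 682 bp upstream to 820 bp downstream, were separated.

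**Figure D3:**
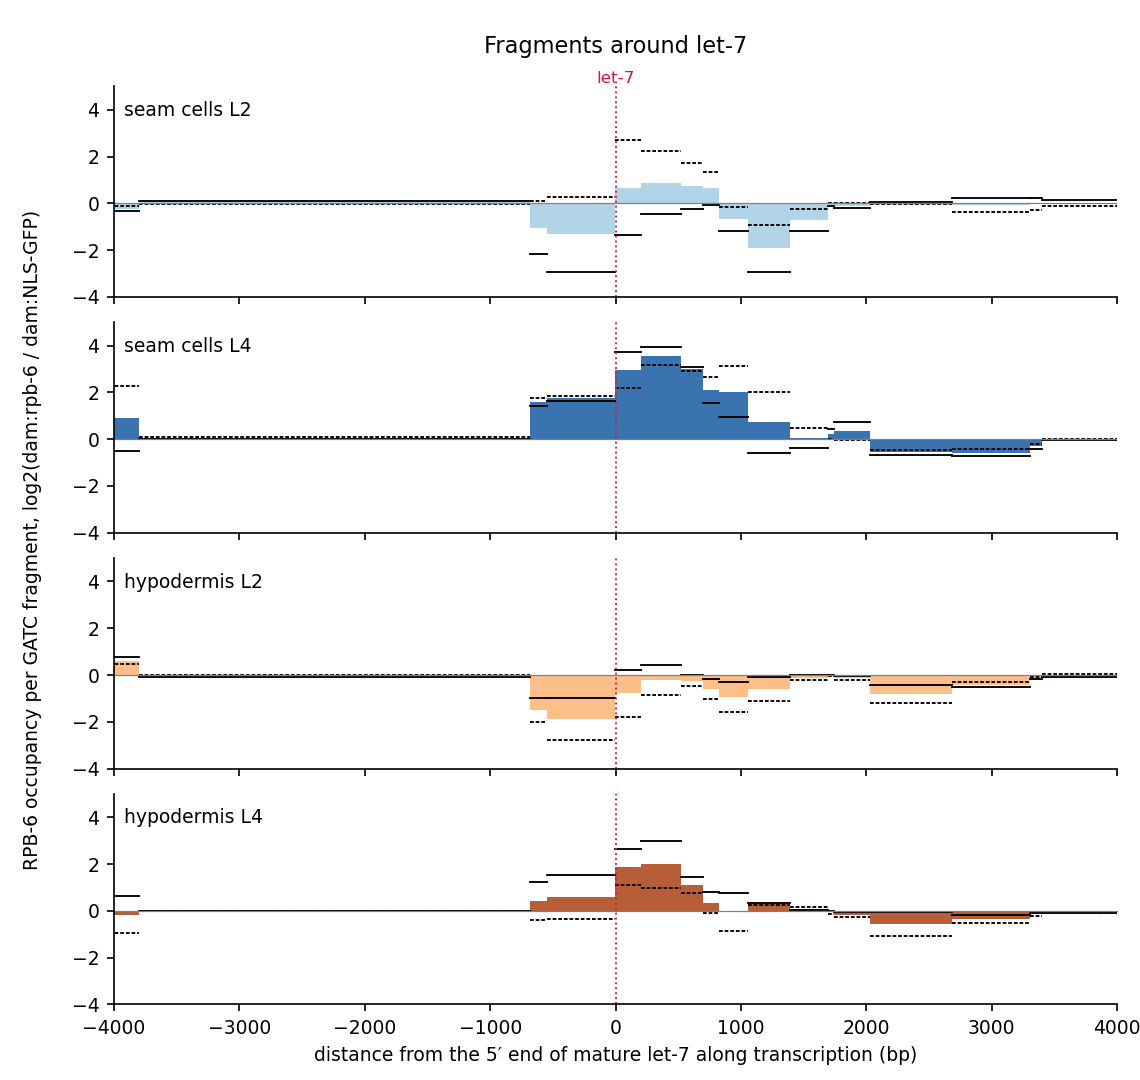
Score of each GATC fragment on the y axis, as log2(dam:rpb-6/dam:NLS-GFP), against the distance from the 5′ end of mature let-7 along transcription on the x axis. Filled steps are the mean of 2 replicates, solid lines replicate 1 and dashed lines replicate 2. The highest L4 fragment spans 202 to 518 bp downstream of the mature 5′ end in both cell types, and the L2 replicates of seam cells lie on opposite sides of 0 there.

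C05G5.7, a coding gene on the same strand (chrX:14743670-14743780) within the annotated let-7 transcript, shares both of its fragments with the let-7 window and cannot be told apart from it. Its scores were -0.32 and 1.94 in L2 seam cells, 3.42 and 3.01 at L4, 0.17 and -0.63 in L2 hypodermis and 2.05 and 0.85 at L4. The flanking genes had differences closer to 0. C05G5.1, 3471 bp away on the downstream side, differed between stages by -0.25 in seam cells and -0.03 in hypodermis. C05G5.2, on the opposite strand upstream, differed by 0.21 and -0.12.

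mir-84 (chrX:16022404-16022478, minus strand, WBGene00003312, outside every protein-coding gene) had scores close to control in all groups. The seam cell scores were 0.21 and -0.02 at L2 and 0.22 and 0.46 at L4. The L4 seam cell mean of 0.34 had an interval of 0.01 to 0.66 (limma against 0, unadjusted p = 0.0436, adjusted p = 0.224). In that group 16.5% of miRNA windows were above control at an unadjusted p under 0.05. The hypodermis scores were -0.06 and 0.08 at L2 and 0.10 and -0.31 at L4. The stage difference was 0.24 in seam cells (SE 0.18, interval -0.22 to 0.70, adjusted p = 0.723), by a narrow gap between the replicates, and -0.12 in hypodermis (SE 0.18, interval -0.57 to 0.34, adjusted p = 1). The mir-84 hairpin lies in a fragment of 1881 bp, of which 828 bp are in the window, and this fragment stayed between -0.10 and 0.16. The other fragment, from 262 to 600 bp upstream, scored 0.37 and 0.01 in L2 seam cells and 0.71 and 1.63 at L4. With 2 fragments, the mir-84 window had the lowest resolution of the 5. Its long fragment is shared with the end of nhx-1, a sodium/proton exchanger gene, and the mean over the other fragments of nhx-1 was between -0.42 and 0.64 in the 8 profiles.

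lin-4 (chrII:5902254-5902347, plus strand, WBGene00002993) lies in an intron of the protein-coding gene F59G1.4 on the same strand. The seam cell scores of lin-4 were 0.28 and -0.23 at L2 and 1.96 and -1.05 at L4. The hypodermis scores were 0.75 and -1.38 at L2 and -0.34 and 0.10 at L4. Replicates of 1 group lay on opposite sides of 0 in all 4 groups, and the stages overlapped in both cell types. The stage difference was 0.42 in seam cells (SE 1.16, interval -2.51 to 3.36, adjusted p = 0.936) and 0.20 in hypodermis (SE 1.16, interval -2.74 to 3.14, adjusted p = 1), so a change of several-fold in either direction was not detectable. None of the 3 fragments separated the stages in seam cells or in hypodermis.

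The lin-4 scores moved with the control and with the replicate. In the fragment of 306 bp that holds mature lin-4, the scores were 3.80 and -2.37 in L4 seam cells and 1.92 and -3.12 in L2 hypodermis. The 2 scores of each pair differ in both replicate and control. With the same replicates, again replicate 2 alone in L4 seam cells, the window scored higher against control 1 than against control 2 by 1.39 in L2 hypodermis and by 0.35 in L2 seam cells. At L4 the same quantity was -0.86 in hypodermis and -1.04 in seam cells. Against the same control, replicate 2 minus replicate 1 was -0.16 in L2 seam cells and -1.96 in L4 seam cells. In hypodermis it was -0.74 at L2 and -0.42 at L4. Without the lin-4 window, a comparison added after the data were seen, F59G1.4 scored between -0.65 and 0.14 in the 8 profiles. tsp-18, a tetraspanin gene 2205 bp downstream, scored between -0.17 and 0.44.

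**Figure D4:**
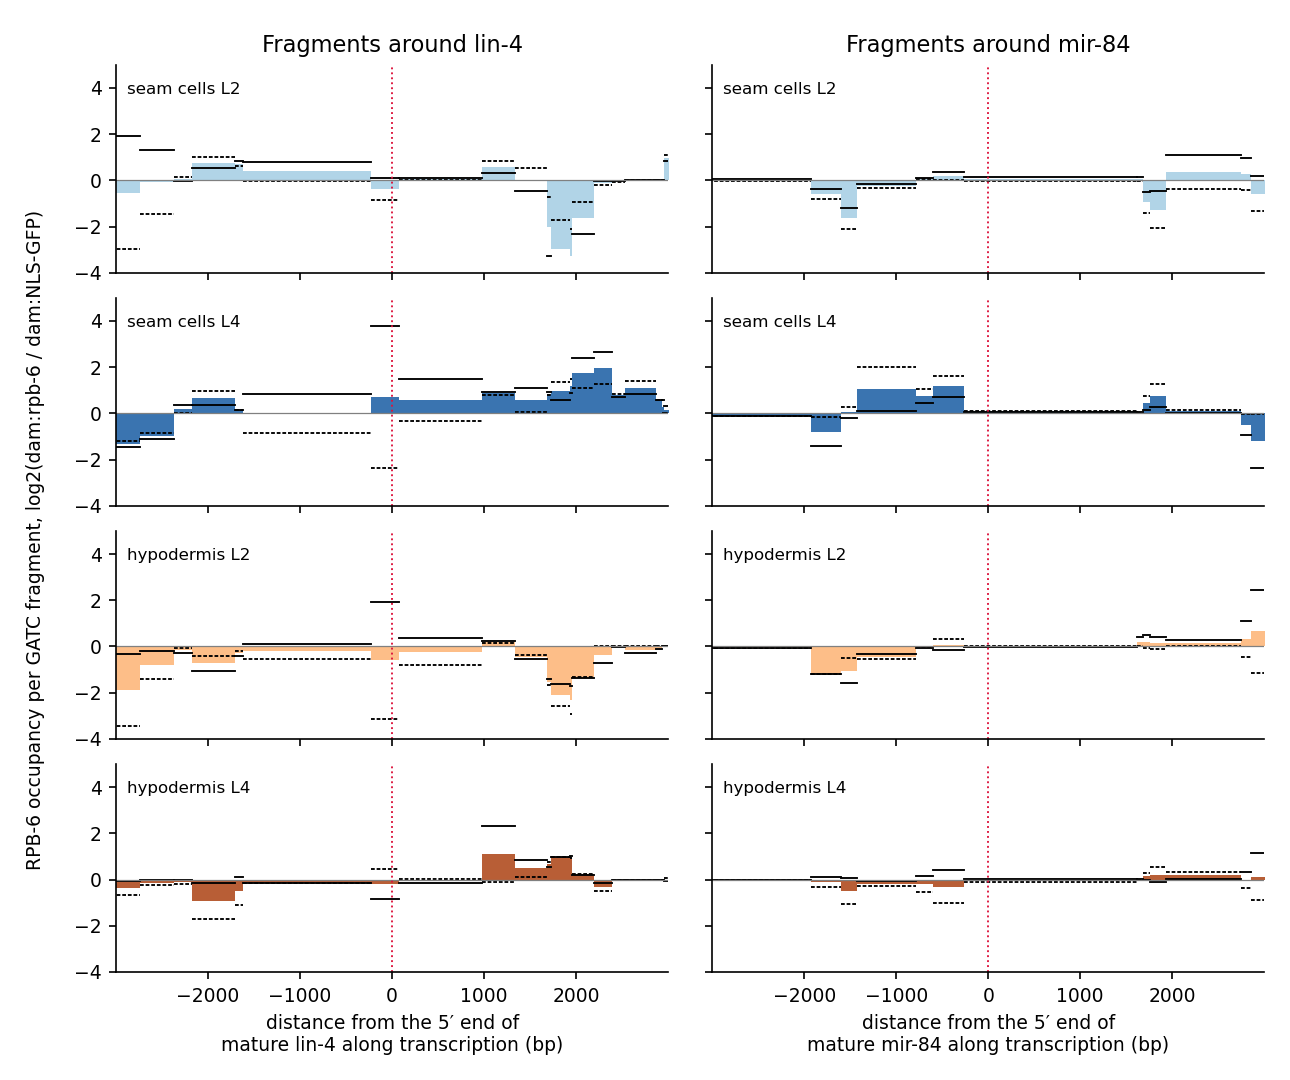
Score of each GATC fragment on the y axis, as log2(dam:rpb-6/dam:NLS-GFP), against the distance from the 5′ end of mature lin-4 (left) or mir-84 (right) along transcription on the x axis. Filled steps are the mean of 2 replicates, solid lines replicate 1 and dashed lines replicate 2. The fragment at mature lin-4 has replicates on opposite sides of 0 in every group, and the fragment of 1881 bp at mir-84 stays within -0.10 to 0.16.

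The other genes that share a seed were compared in the same way. mir-237, on chromosome X with the lin-4 seed, scored 0.46 and -0.14 in L2 seam cells and 1.16 and 0.68 at L4. Its seam cell stages were separated, by 0.76 (SE 0.25, unadjusted p = 0.0262, adjusted p = 0.498). In hypodermis mir-237 scored 0.19 and 0.24 at L2 and 0.30 and 0.23 at L4, a difference of 0.05 (SE 0.25, adjusted p = 1). mir-795, with the let-7 seed, scored from -0.29 to 0.02 in seam cells and from -1.04 to -0.03 in hypodermis, with stage differences of -0.21 and -0.37 that did not pass the test.

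Seam cells and hypodermis were compared at each stage. At L4 mir-48 was 1.56 higher in seam cells (SE 0.50, interval 0.31 to 2.82, 2.96-fold, unadjusted p = 0.0237, adjusted p = 0.881), with both seam cell replicates above both hypodermis replicates. let-7 was 0.97 higher in L4 seam cells (SE 0.68, interval -0.75 to 2.69) and mir-84 0.44 higher (SE 0.18, interval -0.02 to 0.90), also without overlap, both with an adjusted p of 1. That direction was held without overlap by 79 of the 261 miRNA windows at L4 (30.3%), so 3 of 5 is read against a high background. The L4 replicates of mir-241 and lin-4 overlapped between the cell types. At L2 the replicates of all 5 genes overlapped between cell types, and the difference furthest from 0 was that of mir-241, 1.55 higher in seam cells (SE 1.06, adjusted p = 0.617). With the profiles as deposited the L4 difference of mir-48 was -0.63.

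The stage difference itself was compared between the cell types. For mir-48 it was 2.01 larger in seam cells (SE 0.70, interval 0.23 to 3.79, unadjusted p = 0.0332, adjusted p = 0.822). The same quantity was 0.49 for let-7, 0.36 for mir-84, 0.22 for lin-4 and -1.36 for mir-241, with SEs of 0.96, 0.26, 1.64 and 1.50 and adjusted p-values of at least 0.893. No feature passed the adjusted threshold in the interaction or in either comparison of cell types (limma). At an unadjusted p under 0.05, 7 miRNA windows (2.68%) lay in each direction in the interaction. Between cell types 19 windows (7.28%) were higher and 11 (4.21%) lower in L2 seam cells, and 14 (5.36%) were higher and 3 (1.15%) lower at L4.

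**Figure D5:**
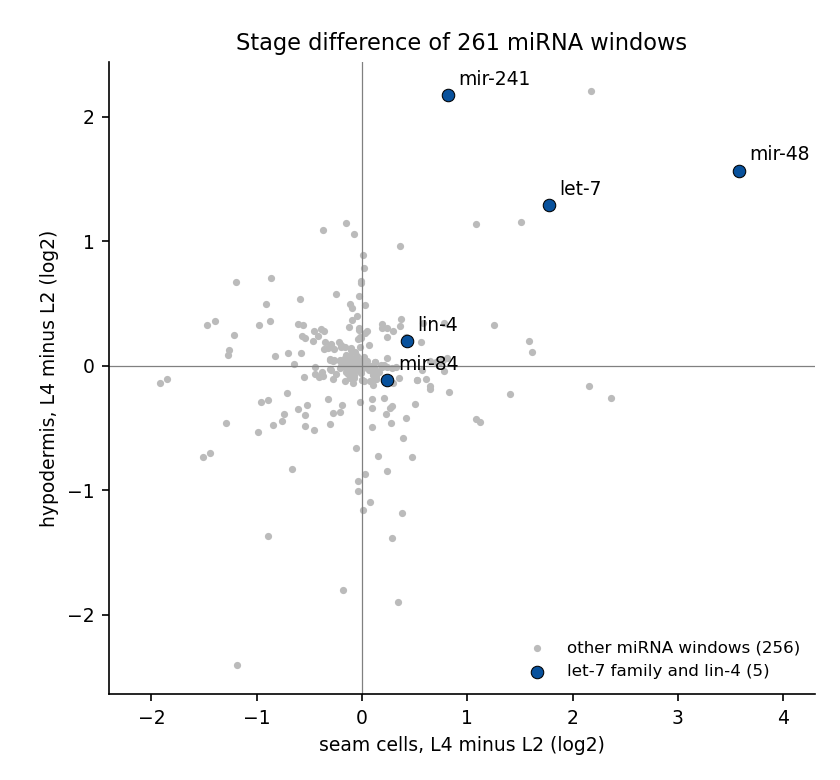
L4 minus L2 difference of window occupancy (log2) in seam cells on the x axis and in hypodermis on the y axis for 261 miRNA windows. The 5 genes are blue and labelled and the other windows grey. mir-48 lies furthest right at 3.58, mir-241 and mir-48 are at places 2 and 3 from the top, and lin-4 and mir-84 lie within the main cloud.

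The windows and genes whose scores over the 8 profiles were most like those of each gene are given as a description, since the profiles fall into only 4 groups. let-7 was most like mir-81 (r = 0.94) and mir-82 (r = 0.89) among miRNA windows, both on chromosome X. mir-81 had group means of 0.33 and 2.50 in L2 and L4 seam cells and -0.47 and 1.74 in hypodermis. Among protein-coding genes with at least 5 fragments let-7 was most like Y39A1A.9 (r = 0.99) and cyn-3, a cyclophilin gene (r = 0.96). mir-48 was most like mir-237 (r = 0.83) and mir-266 (r = 0.78), and among protein-coding genes gly-8 (r = 0.96) and mab-10 (r = 0.96). mab-10 encodes the cofactor of LIN-29 at the transition to the adult. mir-241 was most like mir-266 (r = 0.93) and mir-254 (r = 0.91) and the coding genes Y24F12A.1 and slc-17.6, all 4 with group means between -0.48 and 0.12. mir-84 was most like mir-49, mir-56, nhr-285 and rtel-1, and lin-4 like mir-271, mir-244, T22D1.3 and ceh-38, with r between 0.80 and 0.95.

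Of 16 heterochronic genes that regulate these miRNAs or act with or below them, none passed the stage test after adjustment in either cell type, and 5 were higher at L4 at an unadjusted p under 0.05 in seam cells, where 3.3% of coding genes were. In hypodermis 1 was higher, lin-29, and 1 lower, let-60, against 0.931% and 3.45% of coding genes. Their median difference was 0.44 in seam cells, 15 of the 16 being above 0, and -0.03 in hypodermis, beside medians of -0.06 and -0.01 over all coding genes. In seam cells at L4, 7 of the 16 were called above control, against 2.56% of coding genes. These were the period homologue lin-42, the zinc finger gene lin-29 with its cofactor mab-10, the BLIMP1 homologue blmp-1, the nuclear receptors nhr-85 and nhr-23, and let-60, which encodes Ras. Fewer were called in the other groups, 1 in L2 seam cells, 4 in L2 hypodermis and 2 in L4 hypodermis, against 0.2%, 5.22% and 1.49%.

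The heterochronic genes with stage differences furthest from 0 in seam cells were mab-10, nhr-23 and blmp-1. mab-10 scored 0.25 and 0.25 at L2 and 2.23 and 1.91 at L4 in seam cells, a difference of 1.82 (SE 0.35, unadjusted p = 0.00291, adjusted p = 0.379). In hypodermis mab-10 scored 0.04 and 0.30 at L2 and 1.38 and 0.35 at L4, a difference of 0.70 (adjusted p = 1). nhr-23 encodes a nuclear receptor needed for moulting, and its L4 replicates lay above its L2 replicates in seam cells. nhr-23 scored 1.15 and 2.03 at L2 and 3.19 and 2.56 at L4 in seam cells, a difference of 1.28 (adjusted p = 0.509). blmp-1 scored 1.55 and 3.24 at L2 and 3.43 and 3.31 at L4, separated by a narrow gap (difference 0.98, adjusted p = 0.704). lin-29 acts below let-7 in the switch to adult fate, and its replicates were separated by stage in both cell types. lin-29 scored 0.42 and 0.19 at L2 and 1.28 and 1.06 at L4 in seam cells (difference 0.86, adjusted p = 0.41), and 0.24 and -0.12 against 0.69 and 0.39 in hypodermis (difference 0.48, adjusted p = 1).

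The mRNAs best known as targets had stage differences in polymerase occupancy that did not pass the test. The differences were 0.16 and -0.30 for lin-14 in seam cells and hypodermis, -0.19 and -0.26 for lin-28 and 0.13 and 0.07 for lin-41. For hbl-1 they were 0.36 and -0.10 and for daf-12 0.03 and 0.02. The SEs lay between 0.23 and 0.39 and the adjusted p-values were at least 0.716 (limma). No feature passed the stage test after adjustment in either cell type, so a change of several SEs could also go undetected. let-60, from the same gene list, was 0.52 higher at L4 in seam cells (SE 0.08, unadjusted p = 0.00102, adjusted p = 0.336, limma). In hypodermis its difference was -0.32 (SE 0.08, unadjusted p = 0.00907, adjusted p = 0.799). The complement of the let-7 seed, CTACCTC, and that of the lin-4 seed, CTCAGGG, were searched on the transcribed strand of the longest annotated 3′UTR of each coding gene, and a 3′UTR may hold both motifs. CTACCTC occurs in 147 of 16805 3′UTRs (0.875%), among them lin-14 (4 sites), hbl-1 (4), daf-12 (3) and lin-28 (1). CTCAGGG occurs in 37 (0.220%), among them lin-14 (3 sites) and lin-28 (1). lin-41 has no exact match in this 3′UTR, which says only that these letters are not there. The other heterochronic genes also held neither motif.

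Of 9 genes for miRNA processing and function, none passed the stage test, and none had an unadjusted p under 0.05 in either cell type. Their median differences were 0.08 in seam cells and -0.20 in hypodermis. The largest in seam cells were those of the GW182 homologues ain-2 (0.54) and ain-1 (0.30) and the Argonaute gene alg-2 (0.20). In hypodermis they were those of the Drosha gene drsh-1 (-0.35), the TRIM-NHL gene nhl-2 (-0.27) and the Argonaute gene alg-1 (-0.26). alg-1, whose 3′UTR holds 1 CTACCTC, had group means between 0.73 and 1.21.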

How the data were processed

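The deposited values were log2 ratios of dam:rpb-6 to dam:NLS-GFP for each GATC fragment, which the authors made from reads of 16 samples with damidseq_pipeline. The submitters' processing notes name Bowtie2 2.3.4 and SAMtools 1.9 and the build WBcel235. Each of the 2 polymerase replicates was divided by each of the 2 controls of its group, which gave 16 profiles of 269057 fragments. The files hold no read counts, so the depth is unknown and no counting interval can be given. The averaged profiles and the authors' lists of called genes with false discovery rates were not used, and no value of theirs is given here.

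A miRNA gene was extended by 500 bp on both sides, its score was the mean over overlapping fragments weighted by overlap, and protein-coding genes were scored over their own span. One profile had all fragment starts shifted by 1 bp and was joined by its ends. From each group 2 profiles were taken that share no sample, leaving out replicate 1 against control 1 of seam cells at L4. limma 3.58.1 in R 4.3.3 fitted the 4 group means to 261 miRNA windows and 19983 protein-coding genes (residual df 4, prior df 1.24, median residual SD 0.208) and p-values were adjusted by Benjamini-Hochberg over all 20244. Occupancy above control was the test of a group mean against 0 in that fit, in place of the authors' gene calls, which draw at random. An exact permutation test of 2 against 2 samples cannot go below p = 0.333 and was not used. Single fragments were fitted alike over the whole genome. The scripts were tested on simulated data and used Python 3.11.15, numpy 2.4.6, pandas 2.3.3 and matplotlib 3.10.9.

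The authors state that the population of each replicate was divided between collection at L2 and at L4. The replicate number was therefore taken to pair the stages, which the sample titles do not state. The replicate differences at L2 and at L4 correlated over features at r = -0.12 in seam cells and 0.23 in hypodermis. The fit with the replicate as a block within cell type had 2 residual df. Named were the 5 genes, annotated miRNAs with their seeds, and the coding genes that share a fragment or are nearest on each side. Of 16 heterochronic and 9 miRNA pathway genes, those past the test were named. Otherwise the 3 with the largest stage difference in each cell type were named. The known targets, lin-29, let-60 and alg-1 were named after their values were seen. For each of the 5, the 2 miRNA windows and 2 coding genes with the highest r were also named. The genes, lists and windows were chosen with earlier results of these data known. Other windows, weights, profiles, controls, scalings, blocks and left-out replicates were tried, as was the let-7 hairpin in place of its long transcript and F59G1.4 without the lin-4 window, both added after the data were seen.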

Additional observations from a re-analysis of the deposited data

How the results depend on the processing

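Every alternative kept the direction of the stage difference of let-7 and of mir-48 in both cell types. Over these alternatives let-7 lay between 0.93 and 2.76 in seam cells and between 0.69 and 2.36 in hypodermis, and mir-48 between 1.38 and 4.08 and between 1.05 and 2.10. The cause of the changes below was not tested, except that fewer genes enter the adjustment with miRNA windows alone and that the profiles as deposited include the one that stood apart.

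With each replicate averaged over both controls, whose p-values are too small because the replicates then share controls, the seam cell difference of mir-48 passed the test (3.57, adjusted p = 0.0376). The miRNA windows called in that setting, against 0 in each comparison, were 13 and 1 between stages in seam cells and hypodermis, 19 and 2 between cell types at L2 and L4 and 3 in the interaction, and above control 18 in L2 seam cells, 35 in L4 seam cells, 27 in L2 hypodermis and 17 in L4 hypodermis. Fragments called between stages were 13487 in seam cells and 17156 in hypodermis. mir-241 was then -0.16 between cell types at L4.

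With 0 bp on each side mir-241 was -0.26 between stages in seam cells and -0.42 between cell types at L4, and with 250 bp the latter was -0.0161. mir-48 between cell types at L2 was 0.19 with 0 bp, 0.0105 with 1000 bp and 0.41 with 2000 bp. With 2000 bp mir-84 was 0.0949 between stages in hypodermis and lin-4 -0.00369 in the interaction. With the profiles as deposited the seam cell stage differences of mir-241 and lin-4 were -0.56 and -0.53, the L4 differences between cell types of mir-48, mir-241 and lin-4 -0.63, -1.18 and -0.38, and the interactions of let-7, mir-48 and lin-4 -0.19, -0.18 and -0.73. Scaled to one SD, mir-241 was -0.27 between cell types at L4.

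mir-48 above control in L4 seam cells was not called with the profiles as deposited (1.63, adjusted p = 1) or with the replicate block within cell type (3.82, adjusted p = 0.0727). In L4 hypodermis it was called under 7 alternatives, with adjusted p between 0.0175 and 0.0451. Windows called above control in L2 seam cells, 0 as reported, were 1 with 0 bp, 2 with 250 bp, 1 with 1000 bp, 3 with 2000 bp, 2 unweighted, 1 scaled, 1 centred, 3 without fragments at 0 and 4 with miRNA windows alone. In L4 seam cells, 10 as reported, they were 16 unweighted, 0 as deposited, 17 with crossed controls, 6 scaled, 17 centred, 21 without fragments at 0, and with the replicate block 0 within cell type and 4 over both types. In L2 hypodermis, 13 as reported, they were 6 as deposited, and 0 and 6 with these blocks. In L4 hypodermis, 4 as reported, they were 7 with 2000 bp, 0 as deposited, 9 with crossed controls, 11 scaled, 7 centred, 7 with miRNA windows alone and 0 with either block. In hypodermis 1 window was called between stages with miRNA windows alone. The block changed no other call.

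Without 1 replicate, where the remaining sample was taken to vary like the other groups, the seam cell stage difference was -0.0862 to 1.71 for mir-241 and -1.08 to 1.93 for lin-4. In hypodermis it was -0.32 to 0.0897 for mir-84 and -0.87 to 1.27 for lin-4. Between cell types at L2 let-7 was -0.36 to 1.33, mir-84 -0.0315 to 0.20 and lin-4 -0.72 to 1.41, and at L4 mir-241 was -0.90 to 1.27 and lin-4 -0.93 to 2.08. The interaction was -0.36 to 1.33 for let-7 and -1.28 to 1.73 for lin-4. mir-48 above control in L4 seam cells was 3.31 to 4.32. Windows called above control were 0 to 1 in L2 seam cells, 0 to 10 in L4 seam cells, 0 to 13 in L2 hypodermis and 0 to 1 in L4 hypodermis.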
